A study of Mus musculus with 2 samples.

Results

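Lung B cells were analyzed within single cell RNA sequencing of cells sorted from mouse lungs as dendritic cells (DCs) and macrophages. The members were chosen by UMI counts of marker genes. A cell was counted as a B cell when it held at least 1 unique molecular identifier (UMI, 1 counted RNA molecule) of Cd79a and at least 3 UMIs of Cd79a, Cd79b, Ms4a1 and Ighd together. It had to hold 0 UMIs of the T cell genes Cd3d, Cd3e and Cd3g, 0 UMIs of the DC genes Xcr1 and Fscn1, fewer than 3 UMIs of the macrophage genes C1qa, C1qb and C1qc and fewer than 10 UMIs of the alveolar macrophage genes Chil3, Ear1 and Krt79 per 10000 UMIs. Of 10088 cells with at most 20% mitochondrial UMIs, at most 20000 UMIs and at least 500 genes, 535 met this rule. The cells were selected on the measured values of these genes, so their levels are descriptions and were not tested.

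The mice were female C57BL/6J, age matched, of an age that is not given in the sources used here. Control mice received Alum, an aluminium adjuvant, without ovalbumin (OVA) and saline by the nose. Asthma mice were sensitized to OVA with Alum and challenged with intranasal OVA, and tolerance mice inhaled OVA before they went through the asthma protocol. A separate hashtag antibody marked the cells of each treatment, a tag for the surface protein CLEC12A was added to all, and the 3 treatments were mixed and run on 2 lanes of the 10x platform. The lanes are technical replicates of the same cell suspensions, so there is 1 pool of mice per treatment, which allows no test between treatments.

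B cells are lymphocytes that recognize antigen through a surface immunoglobulin. The antigen-binding receptor is assembled from a heavy chain, which in cells that have not switched class is IgM or IgD, and a kappa or lambda light chain, and it signals through the CD79A and CD79B chains. Commitment to the lineage depends on the transcription factors EBF1 and PAX5. Mature B cells recirculate as follicular cells, stay in the spleen as marginal zone cells or belong to the B1 cells of the body cavities, and they present antigen on MHC class II. In allergic lung disease they are known as the source of IgE and as cells that present inhaled allergen to T cells.

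The members held 1421649 UMIs in all, with a median of 1934 UMIs and 929 genes per cell and 5.62% mitochondrial UMIs. Control lanes 1 and 2 gave 56 and 70 members, asthma lanes 124 and 135, and tolerance lanes 75 and 75. No barcode was shared by the lanes, and between 97.1% and 98.9% of the members' hashtag UMIs in each pool and lane came from the hashtag of that pool. The 3 comparison classes were cut from the same matrices in the same way, 163 T cells (median 2459 UMIs), 231 conventional type 1 DCs (cDC1, median 7490 UMIs) and 5368 alveolar macrophages.

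Before any result, 33 members (6.17%) stood apart because they also held at least 10 UMIs of the myeloid genes Lyz2, Tyrobp and Fcer1g. They made up 14 of 126 control members (11.1%), 14 of 259 asthma members (5.41%) and 5 of 150 tolerance members (3.33%), so that their share was highest in the control pool. Their median of 5679 UMIs was above the 1867.5 UMIs of the other 502 members, and they held a median of 34 myeloid UMIs against 0. B cell genes were present in them as well, with a median of 17 UMIs of the 4 marker genes against 13. All 11 members among the highest 2% of doublet scores (Scrublet, which scores a barcode by its likeness to simulated pairs of cells) were among these 33. A further sign of other cells was seen in 4 of them, which held at least 10 UMIs of the neutrophil genes S100a8 and S100a9, 3 of them in control lane 2 and 1 in tolerance lane 1. The counts and lists of the treatment comparisons and the genes that lead them are therefore also given without the 33 members. The T cell class held the same myeloid UMIs in 21 of 163 cells (12.9%).

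The threshold of 3 UMIs cut through few cells. Among members, 6 held exactly 3 UMIs of the 4 genes and a median of 22 UMIs of Ighm and the light chain genes, which the rule did not use. The 6 cells left out with 2 UMIs held a median of 27, whereas the 15 cells left out with 1 UMI held a median of 0.

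The name B cell was checked with markers that the rule did not use. At least 1 UMI of Pax5 or Ebf1 was found in 517 of the 535 members. Ebf1, the transcription factor that opens the B cell program (GRCm38, chromosome 11, 44617317 to 45008091), had a UMI in 500 members (93.5%), in 0 of 163 T cells, which allows a share of up to 1.84%, and in 0.391% of alveolar macrophages. Pax5, which holds cells in the lineage (chromosome 4, 44524757 to 44710487), had a UMI in 299 members (55.9%) and in 0 T cells. Ly6d, a surface protein of B lineage cells, had a UMI in 481 members (89.9%). The levels, in UMIs of the gene per 1000000 UMIs summed over the class (CPM), were 296, 380 and 360 CPM for Pax5 in the control, asthma and tolerance pools and 1163, 1237 and 1043 CPM for Ebf1. Neither gene differed 2-fold between pools. Markers of T cells were near absent, with 14 listed genes summing to between 26.6 and 39.8 CPM in the pools of members against 5447 to 6610 CPM in those of T cells.

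B cells made up a larger share of all cells in the pools that had received OVA. The share was 3.75% in the control pool (95% Clopper-Pearson interval 3.13 to 4.45%, 126 of 3362 cells), 6.43% in the asthma pool (5.70 to 7.24%, 259 of 4025) and 5.55% in the tolerance pool (4.72 to 6.49%, 150 of 2701). Lanes 1 and 2 gave 3.30% and 4.20% for control, 6.01% and 6.88% for asthma and 5.48% and 5.63% for tolerance, so that no control lane reached a lane of another pool. Without the 33 members with myeloid UMIs the shares were 3.35%, 6.11% and 5.38%. At a floor of 1200 genes per cell in place of 500 they were 1.22%, 2.00% and 2.05%, and asthma no longer lay above tolerance. Among cells other than alveolar macrophages the order was another one, with 13.97% in control (11.8 to 16.4%), 12.3% in asthma (10.9 to 13.8%) and 8.78% in tolerance (7.48 to 10.2%). The control pool held 2460 alveolar macrophages, the asthma pool 1916 and the tolerance pool 992. The cells were sorted for other types, so these shares describe the sorted mixture and not the lung. Intervals here and below cover counting error only.

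**Figure D1:**
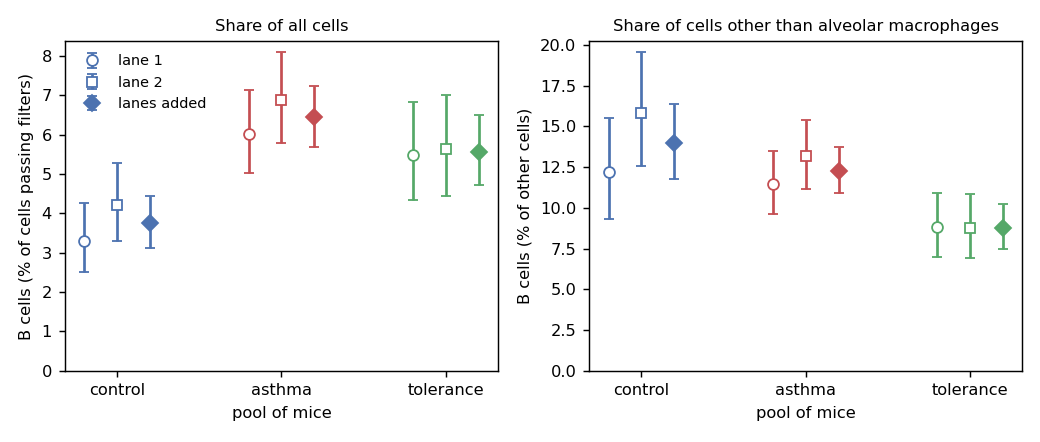
B cells as a percentage of all cells that passed the filters (left) and of the cells other than alveolar macrophages (right), by pool of mice. Open symbols are the 2 lanes, filled diamonds both lanes added, and bars are exact 95% intervals that cover counting error only. On the left the control pool is lowest at 3.75%, on the right the tolerance pool is lowest at 8.78%.

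The heavy chain genes found in most members were those of B cells that had not switched class. Ighm, the constant region of the IgM heavy chain (chromosome 12, 113418558 to 113422730), had a UMI in 522 members (97.6%), and its level was 3455, 3161 and 3617 CPM in the control, asthma and tolerance pools. Ighd, the IgD constant region and a gene of the rule, had a UMI in 351 members (65.6%). Both were found in 344 members and neither in 6. Igkc, the kappa constant region (chromosome 6, 70726435 to 70726966), had a UMI in 514 members (96.1%). Together the immunoglobulin genes took 1.64% of the members' UMIs, with 1.62%, 1.61% and 1.69% in the 3 pools.

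RNA of switched classes was rare. Ighg3 had a UMI in 5 members, Ighg2b in 4, Igha in 3 and Ighg1 in 1, and Ighg2c and Ighe in 0 of 535, which allows a share of up to 0.561%. Ighe encodes the heavy chain of IgE, and in the asthma pool 0 of 259 members allowed up to 1.16%. These limits are for cells with a UMI at this depth, and not for cells that express the gene. The rule also counted Ighd and Ms4a1, so a cell without them needed 3 UMIs of Cd79a and Cd79b together. What this took from the shares of switched cells, and of the antibody-secreting cells below, was not tested. Some genes of antibody-secreting cells were as rare. Jchain, which joins IgM and IgA into polymers, was found in 2 members and Sdc1, a plasma cell surface proteoglycan, in 11 members. Prdm1, the transcription factor that starts secretion, was found in 10 members. Xbp1, a further marker of these cells, was not rare, with a UMI in 92 members (17.2%), 20.9% of T cells and 83.2% of alveolar macrophages. Variable gene segments, which lie far from the sequenced 3′ end, were caught with 129 UMIs in 117 members, and 61 of the 348 variable genes had a UMI, the most frequent with 13. No variable gene reached the 50 UMIs needed for a comparison of pools.

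A mature B cell is known to express 1 light chain type, and most members held mainly kappa. By the larger of the Igkc count and the sum of Iglc1, Iglc2 and Iglc3, 494 members were kappa, 37 lambda and 4 tied, which made 6.97% lambda. In cells thinned to 1000 UMIs each, to make depths equal, the lambda share was 5.79% in control (7 of 121, 2.36 to 11.6%), 10.0% in asthma (25 of 250, 6.58 to 14.4%) and 6.80% in tolerance (10 of 147, 3.31 to 12.2%). Without thinning the shares were 4.80%, 8.53% and 6.08%, and without the 33 members with myeloid UMIs 3.70%, 8.86% and 7.86%. These intervals overlap, and a difference between the pools was not detectable at this number of cells. The separation of the types was incomplete within cells. Of the 535 members, 24 had at least 90% lambda UMIs and 179 had under 10%, and kappa cells still held a median of 13.04% lambda UMIs. Iglc1, Iglc2 and Iglc3 are near-identical copies, so the split of reads among them is uncertain, and the lambda calls used their sum.

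**Figure D2:**
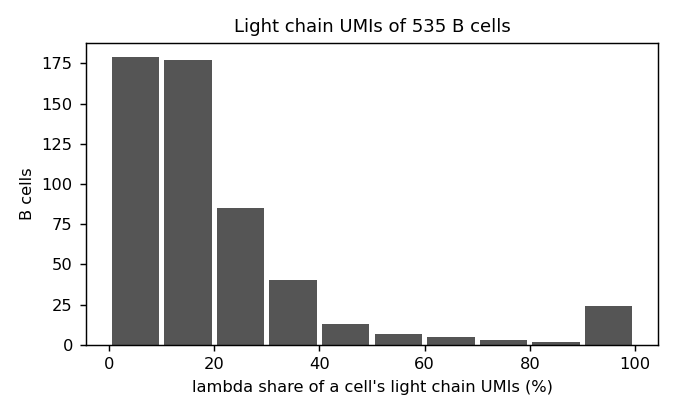
Number of B cells by the share of lambda (Iglc1, Iglc2 and Iglc3) among a cell's light chain UMIs, in bins of 10 percentage points, over all 535 members. The 2 lowest bins hold 179 and 177 cells and a separate group of 24 cells lies at 90% or above.

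Genes that tell B cell subsets apart were counted in cells thinned to 1000 UMIs, which left out 8 members. Fcer2a encodes CD23, the low-affinity IgE receptor of follicular B cells (chromosome 8, 3681737 to 3694175), and 28.2% of control, 28.1% of asthma and 21.1% of tolerance members had a UMI of it, against 0% of T cells and of alveolar macrophages. Unthinned, the shares were 41.3%, 44.0% and 38.7%. Cr2, complement receptor 2, high on marginal zone and present on follicular cells, was found in 8.07% (3.94 to 14.3%), 16.4% (12.1 to 21.5%) and 10.9% (6.35 to 17.1%), and in 0% of T cells and alveolar macrophages. Mzb1, an endoplasmic reticulum chaperone of marginal zone, B1 and plasma cells, was found in 33.1% (24.9 to 42.1%), 22.7% (17.7 to 28.3%) and 33.3% (25.8 to 41.6%). Unthinned, the shares were 15.1%, 26.2% and 20.7% for Cr2 and 50.8%, 42.5% and 57.3% for Mzb1. The 3 genes overlapped in their intervals between pools, and without a second pool per treatment no order can be given.

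Other genes of recirculating B cells were found in varied shares of members. Ccr7, the lymph node homing receptor, had a UMI in 45.2% of thinned members and Cxcr5, the receptor for entry to follicles, in 14.8%, against 25.5% and 0% of T cells. Unthinned, 69.3% and 33.1% of members had a UMI of these genes. Plac8, a small protein high in marginal zone cells, was found in 48.8% of members and 8.08% of T cells. Several genes used as markers of B1 and of CD11c positive B cells were scarce. Cd5 had a UMI in 0.759% of members, 15.5% of T cells and 0.0187% of alveolar macrophages. Bhlhe41, a B1 transcription factor, had a UMI in 1.52%, 0% and 10.9% of the same classes. For Zbtb32, found in memory and B1 cells, the shares were 2.85%, 0.621% and 0.4865%. Unthinned, 1.12%, 7.29% and 5.98% of members had a UMI of Cd5, Bhlhe41 and Zbtb32. Cd9 was found in 7.97% of members (18.5% unthinned), below the 11.2% of thinned T cells and the 91.8% of thinned alveolar macrophages. Of the other genes on the B1 list, Vim was found in 36.4% of thinned members against 42.2% of T cells, and S100a6 in 20.3% against 36.0%. Itgax encodes CD11c, for which the DCs were sorted, and had a UMI in 1.90% of members, 1.24% of T cells and 36.8% of alveolar macrophages. The transcription factor gene Tbx21 of CD11c positive B cells had a UMI in 0 members. Zeb2, another gene listed for CD11c positive B cells, was higher in members than in T cells and in cDC1, as given below.

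Members with and without an Fcer2a UMI differed in other genes, given here as a description because the cells were split on a measured gene. With the 33 myeloid and 7 dividing members set aside, 216 cells had an Fcer2a UMI (median 1807 UMIs) and 279 had none (median 1962). Cr2 was 1.77-fold higher in cells with Fcer2a (95% counting interval 1.27 to 2.49) and Cd55, a complement regulator, 1.48-fold (1.24 to 1.76). Other follicular genes differed little, with Cxcr5 at 1.10 (0.826 to 1.47) and Ccr7 at 1.14 (0.981 to 1.32). The ratio of Cxcr5 was 0.804 in control, 1.70 in asthma and 0.851 in tolerance. Ighm was at 0.801 of its level in the other cells (0.750 to 0.854). Genes linked to activated, memory and B1 cells were lower with Fcer2a. S100a6 was at 0.352 (0.302 to 0.410), Vim at 0.410 and Crip1 at 0.475 of the level in cells without. Plac8, described above as high in marginal zone cells, was at 0.563. Each of these last 4 was lower in 3 of 3 pools. Mzb1 was at 0.758 (0.619 to 0.927). Zbtb32 was at 0.267 (0.101 to 0.603) on 7 against 40 UMIs, and Bhlhe41 at 0.339 (0.136 to 0.742) on 8 against 36 UMIs, with a ratio of 1.66 (0.356 to 8.34) in the control pool. Cd9 was at 0.555 (0.333 to 0.898) on 24 against 66 UMIs, with 2 against 36 UMIs in the tolerance pool and a ratio of 1.10 (0.531 to 2.23) in the asthma pool.

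B cells were set against T cells, the other lymphocytes of the mixture, to see which genes set them apart beyond the genes of the rule. UMIs were summed over lanes for each pool and class and compared by the quasi-likelihood test of edgeR, with the pool as a block and Benjamini-Hochberg adjustment at 0.05. Of 4026 genes tested, 460 were higher in B cells (11.4%) and 437 lower (10.9%), with a median log2 difference of -0.01. The counts were 304 and 281 without lane 1, 185 and 138 without lane 2, and 295 and 270 without the asthma pool. The pools differ in treatment, so their spread holds treatment effects too, and the classes were cut from the same cells by other genes, so p-values measure the spread between pools and not the evidence for the classes. Levels given below as mean ± SD are CPM over n = 3 pools, with B cells first and the other class second.

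Receptor genes led the difference from T cells. Igkc was at 9864 ± 235 CPM against 10.2 ± 6.94, a ratio of 935 (95% counting interval 429 to 2548). Ighm was at 3411 ± 231 against 178 ± 30.3 CPM, a log2 difference of 4.30 (SE 0.17, edgeR adjusted p = 9.85e-18). Of 10 receptor and coreceptor genes tested, 8 were higher and Ifitm2, an antiviral membrane protein of the IFITM family, was lower, with a list median of 7.55, or 5.58 with genes at 0 UMIs in T cells held at their floor of 3 UMIs over the class. Iglc1, Iglc2 and Iglc3 count as 3 of the 8, although reads may be split among these copies. Of 22 genes of receptor signalling, 19 were higher and none lower by edgeR (median 2.33). Syk, the kinase that CD79A and CD79B recruit, was at 317 ± 12.2 against 25.5 ± 13.3 CPM, and Blnk, the adaptor behind it, at 191 ± 18.1 against 8.88 ± 11.7 CPM. Cd22, an inhibitory receptor, had 237 UMIs against 1, a ratio of 95.3 (16.9 to 3781), and Blk, a Src family kinase, 229 UMIs against 1, a ratio of 92.1 (16.4 to 3653). Fcrla, an Fc receptor-like protein kept inside the cell, had 464 UMIs against 0 and was at least 62.2-fold higher.

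Transcription factors of the lineage followed the same direction. Of 19 tested, 15 were higher in B cells and 0 were lower at an adjusted p under 0.05 in edgeR (median 1.66). Ebf1 had 1651 UMIs in members and 0 in T cells, at least 221-fold higher at a floor of 3 UMIs over the class, and Pax5 503 against 0, at least 67.4-fold. Pou2af1, the coactivator of octamer-binding factors, had 305 UMIs against 1, a ratio of 123 (21.9 to 4861). Spib, an ETS family factor, had 177 UMIs against 2, a ratio of 35.6 (9.71 to 296). Irf8 was at 251 ± 8.05 against 26.0 ± 9.10 CPM, a log2 difference of 3.28 (SE 0.31, edgeR adjusted p = 1.51e-09). Spi1, which encodes PU.1, was at 156 ± 12.0 against 166 ± 6.46 CPM and did not pass (adjusted p = 0.876 in edgeR), and without the cells that held myeloid UMIs in either class it was higher in B cells by 1.91 on the log2 scale. The follicular list had 11 of 13 genes higher, among them Fcer2a, at least 44.9-fold, and Cxcr5, at least 33.0-fold, both at 0 UMIs in T cells. Of 6 marginal zone genes, Mzb1, Cr2 and Plac8 were higher. Of 6 plasma cell genes, Mzb1, Irf4 and Txndc5 were higher and none lower by edgeR. Of 8 B1 genes, Cd5, Spn, Anxa2 and Vim were lower in B cells, and Plscr1 and Ahr higher. Without the cells that held myeloid UMIs in either class, 6 of these genes were tested, of which Cd5, Spn and Anxa2 were lower by edgeR and the others did not pass. Vim was then at a log2 difference of -0.03 (edgeR adjusted p = 0.933). Of 4 genes of CD11c positive B cells, Zeb2 was higher and Nt5e lower, also without the cells that held myeloid UMIs.

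Part of the MHC class II genes and all 6 costimulation genes tested were higher than in T cells. The study sorted DCs by high MHC class II and CD11c protein. Members may therefore have been selected for MHC class II, which was not tested. Of 11 MHC class II genes, 6 were higher and H2-DMb1 lower. Of 9 MHC class I genes, Psmb8 was lower by edgeR and the other 8 did not pass (list median -0.31). H2-Ob, a chain of the H2-O modulator of peptide loading, was at 324 ± 8.63 against 26.9 ± 13.7 CPM, and H2-DMb2 at 624 ± 83.3 against 114 ± 106 CPM. Cd74, the invariant chain, was at 15572 ± 657 against 9200 ± 5197 CPM. Its level in T cells was 14434, 9126 and 4040 CPM in the control, asthma and tolerance pools, and genes of type 2 DCs fell in the same order in that class, with 9 listed genes summing to 3237, 1717 and 805 CPM. Without cells that held 10 or more myeloid UMIs in either class, an alternative chosen after seeing the data, all 11 class II genes were higher in B cells, H2-DMb1 turned to a log2 difference of 2.37, 6 of the 9 class I genes were lower by edgeR with the others not past the test, and 5 of the 6 costimulation genes were higher. Among the costimulation genes, Cd86 was at 197 ± 44.7 against 20.3 ± 3.44 CPM and Cd83 at 551 ± 123 against 142 ± 29.8 CPM. The receptor for the survival factor BAFF, Tnfrsf13c, had 180 UMIs against 3, a ratio of 24.1 (8.13 to 118), whereas Bcl2, which blocks cell death, was lower at 102 ± 20.3 against 275 ± 57.8 CPM.

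Beyond the listed genes, the 10 largest differences upward among genes with at least 200 UMIs were Fcmr, Bank1, Gm31243, Vpreb3, Scd1, Cyp4f18, Snn, Fam43a, Pkig and Plaur. Fcmr, the receptor for IgM, had 853 UMIs in members and 0 in T cells, at least 114-fold higher. Bank1, a scaffold of receptor signalling, had 729 against 0, at least 97.7-fold higher. Vpreb3, related to the surrogate light chain, had 307 against 0, at least 41.2-fold. Gm31243, an antisense transcript (chromosome 3, 135904344 to 136167184), overlaps Bank1 (136053363 to 136326066), so its 310 UMIs against 0 are uncertain. Scd1, a fatty acid desaturase, had 407 UMIs against 2, a ratio of 81.8 (22.5 to 678). The 10 largest downward were Lef1, Ms4a4b, Ms4a6b, AW112010, Saraf, Emb, Id2, Selplg, Lgals1 and S100a4. Lef1, a transcription factor of naive T cells, was at 2.58 ± 2.37 against 402 ± 135 CPM, and Id2, which inhibits the E proteins that B cells need, at 71.4 ± 32.6 against 355 ± 124 CPM. Of 29 type I interferon response genes, 2 were higher and 6 lower, Slfn1, Isg15, Bst2 and Irf7 among them. Glycolysis and hypoxia genes were lower in 6 of 7 tested, with Pdk1, Ldha, Hif1a and Pkm in the lead. Of 10 cell division genes H2afz and Stmn1 were lower, and Stmn1 turned to a log2 difference of 0.86 without lane 2.

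Against cDC1, the professional antigen-presenting cells of the same pools, the question was which presentation genes B cells share with DCs. Of 6027 genes tested with edgeR, 1433 were higher in B cells (23.8%) and 1428 lower (23.7%), with a median log2 difference of 0.03. The counts were 725 and 698 without lane 2, and 785 and 804 without the asthma pool. MHC class II genes went in both directions, in cells from a sort that used MHC class II protein. H2-Aa was at 4250 ± 147 against 8988 ± 1123 CPM, H2-Ab1 at 3691 ± 58.7 against 10211 ± 434 CPM and Cd74 at 15572 ± 657 against 25404 ± 2281 CPM, and each was lower in all 3 pools. H2-DMb1, a chain of the peptide exchange factor, was lower by 2.67 on the log2 scale (SE 0.16, edgeR adjusted p = 1.52e-11). In contrast, the 2 chains of H2-O, which holds that exchange factor back, were higher, H2-Oa at 271 ± 34.9 against 55.6 ± 4.19 CPM and H2-Ob at 324 ± 8.63 against 102 ± 45.0 CPM. H2-DMb2 was higher as well, at 624 ± 83.3 against 119 ± 22.3 CPM, and so was H2-Eb2. In all, 4 of 11 class II genes were higher and 6 lower. Of 10 MHC class I genes, 6 were lower, led by Psmb9, Tap2, Tap1 and Psmb8, and H2-K1 was higher.

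Of the listed lineage transcription factors, Irf8 and Spi1 were lower in B cells than in cDC1 and the others were higher. Irf8, which cDC1 need, was at 251 ± 8.05 against 1768 ± 118 CPM, and Spi1 at 156 ± 12.0 against 425 ± 22.2 CPM. The other 18 of 20 listed factors were higher in B cells. Bcl11a was at 220 ± 16.9 against 39.7 ± 7.97 CPM and Bach2, which restrains plasma cell differentiation, at 114 ± 24.9 against 13.3 ± 5.44 CPM. All 13 follicular genes were higher. Of 6 plasma cell genes, Mzb1, Irf4 and Txndc5 were higher and Creld2 and Xbp1 lower. Of 6 genes of CD11c positive B cells, Fcrl5 and Zeb2 were higher and Cxcr3, Itgax, Cd80 and Ahnak lower. Of 9 B1 genes, 4 were higher (Fcrl5, Zbtb32, Bhlhe41 and S100a6) and 4 lower (Anxa2, Cd9, Ahr and Vim). Gpr183, the oxysterol receptor, was at 312 ± 87.2 against 89.9 ± 2.13 CPM. Ltb, which encodes lymphotoxin beta and shapes lymphoid tissue, was at 470 ± 113 against 4.87 ± 1.30 CPM. Of 22 cell division genes, 21 were lower in B cells and none higher by edgeR, and 7 of the 535 members held at least 5 UMIs of 6 division genes. Of 27 immediate-early and stress genes, 16 were lower, led by Hspa1a, Hspa1b, Egr1 and Nr4a2, and 4 higher, Cd69, Myc, Btg1 and Jund.

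The unlisted genes highest above cDC1 were Fcmr, Gimap6, Gimap4, Gimap1, Vpreb3, Ablim1, Gimap3, Gm8369, Bank1 and Ripor2. The GIMAP proteins are GTPases of lymphocyte survival. Gimap6 was at 487 ± 19.2 CPM in B cells, 398 ± 80.6 CPM in T cells and 0 UMIs in cDC1, and it did not pass against T cells (log2 difference 0.31, SE 0.17, edgeR adjusted p = 0.235). The 10 largest downward were A530099J19Rik, Xlr, Rab7b, Sept3, Ffar4, Cldn1, Tbc1d4, Flt3, Cst3 and Klrb1b. Flt3, the growth factor receptor of DCs, was at 4.76 ± 3.59 against 179 ± 11.8 CPM, and Cst3, which encodes cystatin C, at 891 ± 431 against 32348 ± 2961 CPM. Of the 3945 genes tested in both comparisons, 365 were higher in B cells than in either class, which was 79.3% of the genes higher than in T cells and 25.5% of those higher than in cDC1. The B cells stand in both comparisons, so this overlap is a description.

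**Figure D3:**
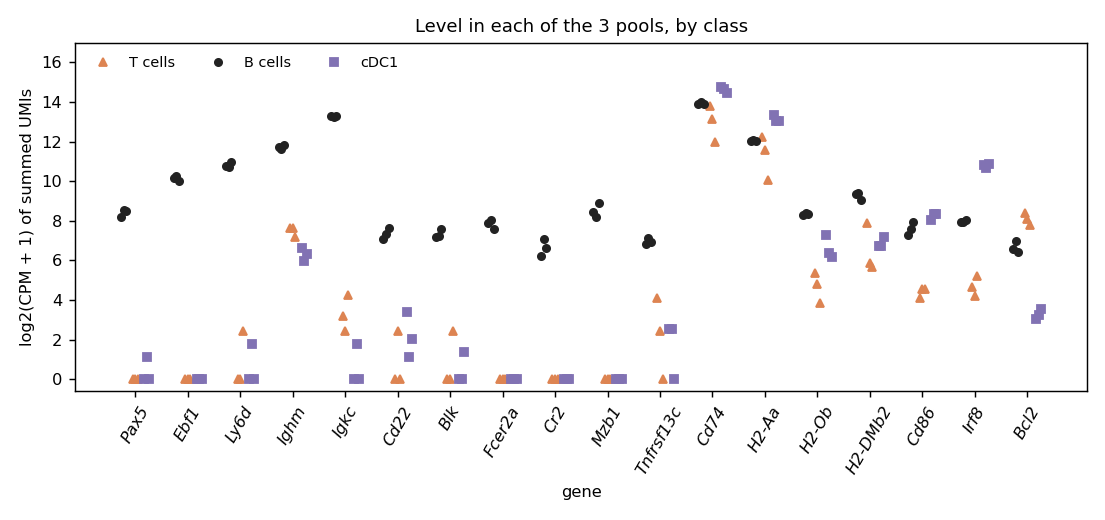
Level of 18 genes in B cells (black circles), T cells (orange triangles) and cDC1 (purple squares), as log2 of CPM plus 1, with 1 symbol for each of the 3 pools. Ebf1, Fcer2a, Cr2 and Mzb1 are at 0 in T cells and cDC1, Cd74 and H2-Aa are highest in cDC1, H2-Ob and H2-DMb2 are highest in B cells, and Irf8 is highest in cDC1.

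The octamer is the DNA element that the factors OCT1 and OCT2 bind together with the coactivator encoded by Pou2af1, and it is a hallmark of immunoglobulin promoters. Since Pou2af1 was at 206 ± 57.8 CPM in B cells, 1.49 ± 2.58 CPM in T cells and 0 UMIs in cDC1, the letters ATGCAAAT and their other strand ATTTGCAT were looked up in the 250 bases before the start of each gene in the RefSeq promoters of GRCm38.p6. A match was found in 9 of 269 genes higher in B cells in both comparisons (3.35%), in 2 of 166 lower in both (1.20%), in 43 of 3134 tested in both (1.37%) and in 490 of 27025 genes of the whole table (1.81%). A match is a description and was not tested as a site. Of the 9 genes higher in B cells with a match, Chchd10, Egln2, Gadd45a, Galnt11 and Zfyve26 are not shown. The 4 matches shown were picked because they belong to B cell genes with values above and below. The octamer stands in capitals, read 5′ to 3′ along the gene's strand.
Blnk, GRCm38.p6, chr19:40994333-40994362, minus strand: tactggaagggATTTGCATgcccaataagg
Ccr6, GRCm38.p6, chr17:8235964-8235993, plus strand: aaatgaaaaaaATTTGCATgtcacagtgaa
Prkcb, GRCm38.p6, chr7:122289044-122289073, plus strand: gcctgggtttcATGCAAATgagggaggcgg
Vpreb3, GRCm38.p6, chr10:75948244-75948273, plus strand: tcagtgggctgATTTGCATgctctattgtg
The octamer began 130 bases before the RefSeq start in Blnk, 68 in Ccr6, 70 in Prkcb and 45 in Vpreb3. In the gene positions used elsewhere here, Blnk spans 40928927 to 40994535 and Vpreb3 75943057 to 75949657. By those positions the matches of Blnk and Vpreb3 lie inside the genes. Prkcb, the protein kinase C of receptor signalling, was at 192 ± 11.8 CPM in B cells against 67.2 ± 16.5 CPM in T cells.

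The asthma pool was compared with the control pool to see what allergen sensitization and challenge changed in lung B cells. A gene was counted when its summed CPM differed at least 2-fold, in the same direction in both lanes, with at least 50 UMIs over both pools. Of 2882 genes, 37 were higher (1.28%) and 30 lower in asthma (1.04%). The median log2 fold of all genes was 0.03. Without the 33 members with myeloid UMIs the counts were 25 and 6, of which 12 and 4 were genes counted with them. Without lane 1 there were 23 higher genes and without lane 2 there were 16. B cell genes themselves moved little. None of 9 receptor genes and none of 21 receptor signalling genes passed the 2-fold limit (list medians 0.10 and 0.25), and without the 33 members 1 signalling gene did, Vav1 at a log2 fold of 1.03 (0.57 with them), and MHC class II genes had a median of 0.10 over 11 genes. Fcer2a was at 234 CPM in control and 264 in asthma, a ratio of 1.13 (0.859 to 1.49).

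Il4i1, an amino acid oxidase that interleukin 4 induces in B cells (chromosome 7, 44816387 to 44840809), was highest in the asthma pool with and without the myeloid members. It was at 20.7 CPM in control (7 UMIs), 88.4 in asthma (58 UMIs) and 37.4 in tolerance (16 UMIs). Lanes 1 and 2 gave 35.1 and 10.2 CPM in control, 97.6 and 81.2 in asthma and 40.9 and 34.5 in tolerance, so that both asthma lanes lay above every other lane. The fold of asthma over control was 4.27 (1.94 to 11.1, counting error only). The list of interleukin 4 response genes had a median log2 fold of asthma over control of 0.26 over 8 genes. Of these, Il4i1 alone passed the limit upward and Mgl2 alone downward. Without the myeloid members the list median was 0.66, Il4i1 alone passed upward and Mgl2 no longer passed downward. A response of the list as a whole was not tested. Samsn1, an adaptor that restrains B cell activation, was at 68.1, 166 and 70.2 CPM in control, asthma and tolerance, 2.44-fold higher in asthma than in control (1.54 to 4.01). Rasgef1b, an activator of Ras-like GTPases, was at 68.1, 168 and 131 CPM, 2.46-fold (1.56 to 4.04). Tcf3, which encodes the E proteins, was at 56.2, 133 and 86.5 CPM, 2.36-fold (1.42 to 4.10), the 1 of 19 lineage factors past the limit. Ahr, the aryl hydrocarbon receptor, was at 41.4, 89.9 and 88.8 CPM, and the other genes higher both ways were Bst2, Exosc8, Bcar3, Jarid2, Pkib, Rsf1 and Mrps26. In T cells Il4i1 was at 0, 35.5 and 49.2 CPM.

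Lower in asthma with and without the myeloid members were Ahnak, Stmn1, Myadm and Map4k2. Ahnak, a large scaffold protein of memory-like lymphocytes, was at 370 CPM in control, 149 in asthma and 243 in tolerance, 2.48-fold lower in asthma (ratio interval 0.307 to 0.530). S100a6 was at 2063, 1016 and 1669 CPM and Vim at 1732, 741 and 1349 CPM. Asthma was lowest in both, yet without the myeloid members their log2 folds of asthma over control were -0.77 and -0.88 and fell short of the limit. The B1 list, which holds both genes, had a median of -0.88 over 6 genes, or -0.48 without these members. Stmn1, a tubulin-binding protein of dividing cells, rested on 84 UMIs in 26 cells with 26 UMIs in 1 cell, and of the 7 dividing members 1 was control, 3 were asthma and 3 tolerance.

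Several of the largest differences with all members were of genes that macrophages, neutrophils or DCs express. The 10 largest upward were Ccl24, Fabp5, AA467197, Il4i1, Hibadh, Ccl4, Bcl3, Rgs1, Cnot6 and Exosc8, of which Il4i1 and Exosc8 also passed without the 33 members. The 10 largest downward were S100a9, Slpi, Mgl2, Tppp3, Il1b, Nfam1, Alox5ap, Emb, Anxa2 and Wfdc17. S100a9 had 551 UMIs in control, 1 in asthma and 18 in tolerance, and 350 of its 570 UMIs came from 1 cell. The 8 neutrophil markers summed to 3807, 18.3 and 88.8 CPM in the pools with all members and to 12.1, 8.81 and 12.9 CPM without the 33. Slpi, Mgl2, Il1b, Alox5ap and Wfdc17 turned to the other direction without them, with log2 folds of asthma over control of 1.61, 1.13, 0.61, 0.39 and 0.17. Ccl24, an eosinophil-attracting chemokine of macrophages, had 181 UMIs in 17 cells, 87 of them in 1 cell, and in alveolar macrophages it was at 7.54, 875 and 481 CPM in control, asthma and tolerance. Fabp5, a fatty acid binding protein, had 268 UMIs in 37 cells, 107 of them in 1 cell, and was at 742, 1073 and 1075 CPM in alveolar macrophages. The part of free RNA or of mixed barcodes in these genes was not tested.

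The tolerance pool was set against the control pool in the same way, and shares that pool with the comparison above. Of 2208 genes, 18 were higher (0.815%) and 42 lower (1.9%), with a median log2 fold of 0.00. Without the 33 members the counts were 15 and 4, with 4 and 3 genes counted in both. Without lane 2 they were 8 and 14. The 10 largest downward were Ifitm3, Ifitm2, Lyz2, Lst1, Tyrobp, Fcer1g, Il17ra, Bin2, Ccl6 and Lmna. Lyz2, Tyrobp and Fcer1g are the genes that defined the 33 members. Lyz2 was at 1288 CPM in control, 581 in asthma and 185 in tolerance, and the log2 fold of tolerance over control moved from -2.80 to 0.054 without these members. The 10 listed monocyte markers summed to 2756, 1690 and 1010 CPM in the 3 pools with all members and to 1070, 765 and 799 CPM without the 33.

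Upward the 10 largest were Ccl24, Fabp5, Sptssa, Bst2, Cstb, Hip1r, Ccr6, Mrpl17, Gramd3 and Glmp, and Bst2, Sptssa, Ccr6 and Igbp1 passed with and without the 33 members. Bst2 encodes tetherin, an interferon-induced protein that holds budding viruses on the cell (chromosome 8, 71534255 to 71537456). It was at 56.2 CPM in control (19 UMIs), 119 in asthma (78 UMIs) and 145 in tolerance (62 UMIs). Control lanes were at 42.1 and 66.6 CPM, asthma lanes at 115 and 122 and tolerance lanes at 164 and 129, so that no lane of an OVA pool reached down to a control lane. The fold over control was 2.11 in asthma (1.27 to 3.70) and 2.58 in tolerance (1.52 to 4.56). In the same pools T cells were at 114, 333 and 295 CPM and alveolar macrophages at 93.6, 557 and 645 CPM of Bst2. The type I interferon list as a whole had median log2 folds of 0.05 over 19 genes in asthma and 0.15 over 15 genes in tolerance, and the genes past the limit were Zbp1 and Bst2 in asthma and Bst2 in tolerance, of which Bst2 passed in both without the 33 members.

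Ccr6, the receptor for the epithelial chemokine CCL20, was at 41.4 CPM in control, 79.2 in asthma and 100.5 in tolerance. Its fold of tolerance over control was 2.43 (1.30 to 4.80). Sptssa, a subunit of the enzyme that starts sphingolipid synthesis, was at 47.4, 67.1 and 126 CPM. Lower in tolerance both ways were N4bp2, Tuba1a and Itch, a ubiquitin ligase that limits lymphocyte activation, at 112 CPM in control against 56.1. MHC class II genes had a median of 0.01 and receptor signalling genes of 0.07.

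**Figure D4:**
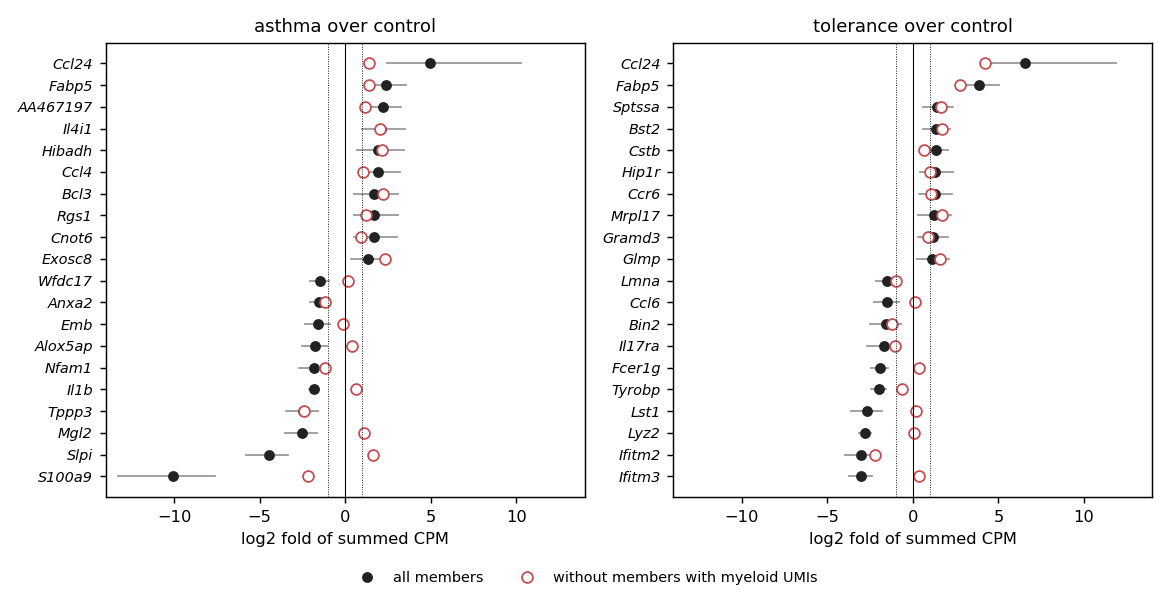
Log2 fold of summed CPM over the control pool for the 10 genes with the largest fold in each direction, asthma on the left and tolerance on the right, in B cells. Black points are all members, grey lines their 95% counting intervals, red circles the values without the 33 members that held myeloid UMIs, and dotted lines mark 2-fold. Lyz2, Fcer1g, Ifitm3, Il1b and Slpi leave the lower side without these members, whereas Il4i1 and Bst2 stay above 2-fold.

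Tolerance and asthma mice both received OVA. Of 3052 genes, 6 were higher in tolerance (0.197%) and 35 lower (1.15%), with a median log2 fold of -0.03. Without the 33 members 8 were higher and 18 lower, with 4 and 13 counted in both. Without lane 1 there were 13 higher genes, and without lane 2 there were 12 higher and 17 lower. The 6 higher genes were Ccl24, Fabp5, Bri3bp, Ass1, Psmb9 and S100a4. Psmb9, a subunit of the immunoproteasome, was at 201 CPM in control, 151 in asthma and 309 in tolerance, 2.05-fold higher in tolerance than in asthma (1.56 to 2.68). The 10 largest downward were Ear2, Ifitm2, Gadd45g, Ifitm3, Csf1r, Zfp397, Lyz2, Fyn, Exosc8 and Ms4a6c.

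The genes lower in tolerance than in asthma with and without the myeloid members included Gadd45g, Il4i1, Samsn1 and Nfatc1, which were chosen for mention after their values were seen. Gadd45g, a stress-induced gene, was at 38.5, 86.9 and 23.4 CPM in control, asthma and tolerance, 3.71-fold lower in tolerance than in asthma (ratio interval 0.122 to 0.532). Il4i1 was 2.36-fold lower (0.227 to 0.746), Samsn1 2.37-fold (0.272 to 0.638) and Nfatc1, a calcium-regulated transcription factor, 2.39-fold (0.255 to 0.663). Rasgrp1, a Ras activator downstream of antigen receptors, and the genes Exosc8, Nfu1 and Taz were lower as well. Mzb1 was at 346, 296 and 482 CPM, 1.63-fold higher in tolerance than in asthma (1.33 to 1.99), short of 2-fold. The 6 cell division genes tested had a median log2 fold of 0.77, with none past the limit. The lanes differed, since the 22 genes of that list summed to 2959 and 1026 CPM in tolerance lanes 1 and 2 and to 1237 and 1216 CPM in the asthma lanes, and the 3 dividing tolerance members all came from lane 1.

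The CLEC12A surface tag, a readout that the rule did not use, was low on B cells. CLEC12A is an inhibitory lectin of myeloid cells and DCs. Members held a median of 20 tag UMIs in control, 17 in asthma and 17 in tolerance, T cells 15.5, 12 and 15, cDC1 97, 109.5 and 90, and alveolar macrophages 29, 36 and 55. B cells lay above T cells and below both myeloid classes in every pool, and 3 pools are too few for an exact test to pass 0.05. The 33 members with myeloid UMIs held a median of 44 tag UMIs against 17 in the others. Clec12a RNA was at 38.5, 15.2 and 11.7 CPM in the members of the 3 pools and at 8.07, 7.05 and 10.3 CPM without the 33, against 268, 206 and 156 CPM in cDC1.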

How the data were processed

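Per the labels and the study's methods, the authors aligned reads to mm10 with STAR inside Cell Ranger 3.1.0, counted UMIs for each gene in each barcode, and assigned barcodes to treatments from the hashtag counts with Seurat 3.1.5. The deposited values used here are these integer UMI counts, with 31053 genes and 4 antibody entries in 6 matrices of 10901 barcodes. No barcode reaches the minimum number of genes that the study's methods state, so 500 genes were used, with 1200 and 200 as alternatives. The members and all gene lists were chosen with earlier results of these data known.

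Classes were cut by UMIs of their genes. A T cell held at least 2 UMIs of Cd3d, Cd3e and Cd3g, a cDC1 at least 2 of Xcr1 and Clec9a with Xcr1 present, each with 0 UMIs of the B cell genes. Genes of any rule were kept out of the reading. Counts summed per pool and class went into edgeR 4.0.16 under R 4.3.3 (TMM, filterByExpr, pool as block, quasi-likelihood test, Benjamini-Hochberg at 0.05), after the same code had been tested on simulated data, and with DESeq2 1.42.0 as an alternative. The log2 difference of a gene at 0 UMIs in a class depends on an added prior count, so a bound at 3 UMIs over the class is given. Folds between pools have exact conditional and CPM exact Poisson intervals at 95%, which cover counting error only. For lists, 2 to 4 members with the largest differences were named, with others for their known role. Unlisted genes were the 10 largest of either direction with at least 200 UMIs in the higher class, and for pools the 10 largest past 2-fold, variable immunoglobulin genes left out. Cells were handled in Python 3.11.15 with scanpy 1.11.5, numpy 2.4.6, scipy 1.17.1 and pandas 2.3.3. Gene positions are from GRCm38 (mm10). Leaving out cells with 10 or more UMIs of Lyz2, Tyrobp and Fcer1g was chosen after seeing the data. It covered B cells and T cells, while all cDC1 were kept, of which 128 of 231 (55.4%) held such UMIs.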

Additional observations from a re-analysis of the deposited data

How the results depend on the processing

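Counts of genes moved with depth and with the set of cells, while 1 pool per treatment, 535 members and a median of 1934 UMIs per cell limit the rest. Against T cells, 460 higher and 437 lower genes became 199 and 181 with DESeq2, between 185 and 531 and between 138 and 535 with 1 lane or 1 pool left out, the lowest without lane 2 and the highest without the control pool, with 304 and 281 without lane 1 and 295 and 270 without the asthma pool. Against cDC1, 1433 and 1428 became 701 and 821 with DESeq2, between 725 and 1517 and between 698 and 1611 with 1 lane or 1 pool left out, with 931 lower genes without lane 1 and 785 and 804 without the asthma pool. Among single genes, Stmn1 against T cells ranged from -3.01 without lane 1 to 0.86 without lane 2. Without cells with 10 or more myeloid UMIs in either class, H2-DMb1 against T cells turned to 2.37 and Cebpb to -0.27. Against cDC1, where only B cells with such UMIs were left out, Ear2 turned to -0.93. No call count moved over 1.5 times without the pool as a replicate block, with other size factors or with no filter on low counts.

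For asthma over control, 37 higher and 30 lower genes became 186 and 156 with a minimum of 20 UMIs, 6 and 12 with 100, 24 and 19 without the highest doublet scores, between 16 and 23 higher with 1 lane left out, and 6 lower without the 33 members with myeloid UMIs. For tolerance over control, 18 and 42 became 139 and 202 with 20 UMIs, 3 and 12 with 100, between 8 and 15 higher and between 14 and 31 lower with 1 lane left out, 11 higher at a floor of 1200 genes, 29 higher as a mean over cells and 4 lower without the 33 members. For tolerance over asthma, 6 and 35 became 102 and 203 with 20 UMIs, 8 lower with 100, between 12 and 13 higher and between 17 and 27 lower with 1 lane left out, 20 higher as a mean over cells and 18 lower without the 33 members. Without these members Alox5ap, Il1b, Mgl2, Slpi and Wfdc17 turned to log2 folds of 0.39, 0.61, 1.13, 1.61 and 0.17 of asthma over control, and Ccl6, Fcer1g, Ifitm3, Lst1 and Lyz2 to 0.14, 0.35, 0.35, 0.16 and 0.054 of tolerance over control. At a floor of 1200 genes the B cell shares fell to 1.22%, 2.00% and 2.05%, with tolerance above asthma. The causes of the other moves were not tested. No scaling moved the median of all genes by over 0.1.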

Other observations

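Ighm was found outside B cells without its light chain partner. A UMI of Ighm was present in 35.6% of T cells (58 of 163) and 32.0% of cDC1 (74 of 231), against 2.46% of alveolar macrophages, while Igkc was present in 3.68%, 0.866% and 1.71%. The ratio of Ighm to Igkc UMIs was 0.343 in B cells (4788 to 13946), 16.7 in T cells (100 to 6), 72 in cDC1 (144 to 2) and 2 in alveolar macrophages (188 to 94).

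Apoe, the apolipoprotein of macrophage and liver lipid transport, was at 562 ± 212 CPM (SD, n = 3 pools) in B cells against 8.66 ± 0.435 CPM in T cells and 58.7 ± 94.8 CPM in cDC1. It had a UMI in 172 of the 535 members, with 67 of 775 UMIs in 1 cell, and was at 781, 546 and 358 CPM in control, asthma and tolerance. Without cells with 10 or more myeloid UMIs its log2 difference from T cells was 4.94 (SE 0.41), against 5.86 (SE 0.33) with them. In alveolar macrophages it ran the other way, at 67.8, 127 and 351 CPM in the 3 pools.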
